A study of Mus musculus with 6 samples.

Results

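The 10 genes described here belong to the core machinery of entry into and passage through mitosis: the cyclins Ccna2, Ccnb1 and Ccnb2, their kinase partner Cdk1, the Aurora kinases Aurka and Aurkb, the Polo-like kinase Plk1, the activator of the anaphase-promoting complex Cdc20, and the spindle checkpoint genes Bub1 and Bub1b. They were found by symbol, 10 of the 50763 genes in the table, and all 10 passed the filter on low counts. Poly(A) RNA was sequenced from briefly cultured fibroblasts of E13.5 mouse embryos, a primary and finite culture of mesenchymal cells, on a C57BL/6 background (C57BL/6J in the strain label). The 3 K68R libraries came from embryos of a CRISPR knock-in that replaces a lysine of the mitochondrial superoxide dismutase SOD2 with arginine, a change that mimics the non-acetylated enzyme, and the 3 WT libraries came from embryos with unaltered SOD2. The labels call the libraries of a genotype biological replicates and give no origin in separate embryos or dishes. The spread that p-values measure here is therefore that of the 3 libraries of a genotype and may be technical. Every library held both Xist and Y-linked transcripts, given further on, so each mixed cells of both sexes. The labels give neither the passage nor the density of the cultures, nor whether the K68R embryos were homozygous. The library names of the WT samples carry a letter "r" that those of the K68R samples lack, and its meaning is not given, so any difference in handling that it marks cannot be told apart from genotype.

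Mitotic genes are transcribed in a wave that starts in S phase and peaks in G2 and M. CDK1 becomes active when it binds cyclin A or cyclin B, and the rising activity, reinforced by Aurora A and PLK1, drives the cell into mitosis. The spindle checkpoint then holds the CDC20-bound anaphase-promoting complex inactive until every chromosome is attached, after which the cyclins are degraded. Because quiescent and senescent cells hold little of these transcripts, they are widely read as a measure of how many cells in a culture are dividing. In bulk RNA, fewer dividing cells and less RNA per dividing cell cannot be told apart.

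The promoters of this gene group are known for a shared layout, in which CCAAT boxes, bound by the trimeric factor NF-Y, lie upstream of a cell cycle genes homology region (CHR), the element through which the DREAM and MuvB complexes act. RefSeq promoter windows of build GRCm38.p6 were matched for 8 of the 10 genes, and Ccna2 and Aurkb had none in the table used. Each stretch shown has 200 bases, from 150 bases before the annotated start to 50 bases after it, on the strand of the gene. The motifs searched on both strands were the CHR, as TTTGAA or TTTAAA, and the CCAAT box, as CCAAT or its reverse complement ATTGG. No match of one overlaps a match of the other. Capitals mark the matches. The genes shown are Cdk1 and the 2 cyclin B genes, Cdc20 and Plk1, which had the 2 smallest fold changes of the group, and Bub1, the only one of the 8 with no CHR match.
Ccnb1 (chr13:100786437-100786636, minus strand): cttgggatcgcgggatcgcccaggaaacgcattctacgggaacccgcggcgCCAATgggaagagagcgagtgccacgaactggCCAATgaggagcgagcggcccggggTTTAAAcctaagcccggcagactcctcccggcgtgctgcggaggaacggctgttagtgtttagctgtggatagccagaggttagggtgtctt
Ccnb2 (chr9:70421505-70421704, minus strand): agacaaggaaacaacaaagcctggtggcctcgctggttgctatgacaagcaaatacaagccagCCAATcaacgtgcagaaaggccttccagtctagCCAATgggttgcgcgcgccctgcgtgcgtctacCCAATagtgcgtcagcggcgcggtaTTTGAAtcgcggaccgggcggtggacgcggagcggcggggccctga
Cdk1 (chr10:69352863-69353062, minus strand): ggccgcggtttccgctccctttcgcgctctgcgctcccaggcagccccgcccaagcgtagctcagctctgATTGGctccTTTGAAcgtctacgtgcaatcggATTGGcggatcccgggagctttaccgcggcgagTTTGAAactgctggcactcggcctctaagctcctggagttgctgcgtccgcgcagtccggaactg
Cdc20 (chr4:118437294-118437493, minus strand): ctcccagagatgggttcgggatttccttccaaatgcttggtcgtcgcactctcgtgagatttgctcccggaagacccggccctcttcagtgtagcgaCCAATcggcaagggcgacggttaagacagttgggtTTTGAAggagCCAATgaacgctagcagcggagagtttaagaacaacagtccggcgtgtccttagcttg
Plk1 (chr7:122159285-122159484, plus strand): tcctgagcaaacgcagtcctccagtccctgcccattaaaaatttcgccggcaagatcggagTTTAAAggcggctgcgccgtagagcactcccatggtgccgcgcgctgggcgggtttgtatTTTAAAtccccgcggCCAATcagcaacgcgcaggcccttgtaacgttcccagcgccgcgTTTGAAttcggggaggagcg
Bub1 (chr2:127831810-127832009, minus strand): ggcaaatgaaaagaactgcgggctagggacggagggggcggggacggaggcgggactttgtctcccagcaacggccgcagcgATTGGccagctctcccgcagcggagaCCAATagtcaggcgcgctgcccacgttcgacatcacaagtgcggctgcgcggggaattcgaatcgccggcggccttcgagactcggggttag

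A CHR match was present in 7 of the 8 windows and a CCAAT box in 8 of 8, with both in 7. Of 32851 promoter windows of all genes, cut to the same 200 bases, 17.6% held a CHR match, 28.6% a CCAAT box and 5.12% both. Of the 8 members, 6 had at least 2 CCAAT boxes, against 7.46% of all windows. In Ccnb1 the boxes began 99 and 67 bases before the start and the CHR 42 bases before it. In Ccnb2 there were 3 boxes, beginning 87, 54 and 21 bases before the start, and the CHR began at base 5 of the transcript. Plk1 had 3 CHR matches and 1 CCAAT box. The box began 14 bases before the start, after the CHR matches at 89 and 29 bases before it. In Cdc20 a box began 8 bases before the start, after the CHR at 18 bases before it. In Cdk1 a box began 48 bases before the start, between CHR matches at 71 and 15 bases before it. The boxes of these genes thus did not all lie upstream of every CHR match. The E2F letters TTTCCCGC and TTTGGCGC, also searched on both strands and present in 1.14% of all windows, were in none of the 8. A match describes letters in these windows and is not evidence that a factor binds there.

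**Figure D1:**
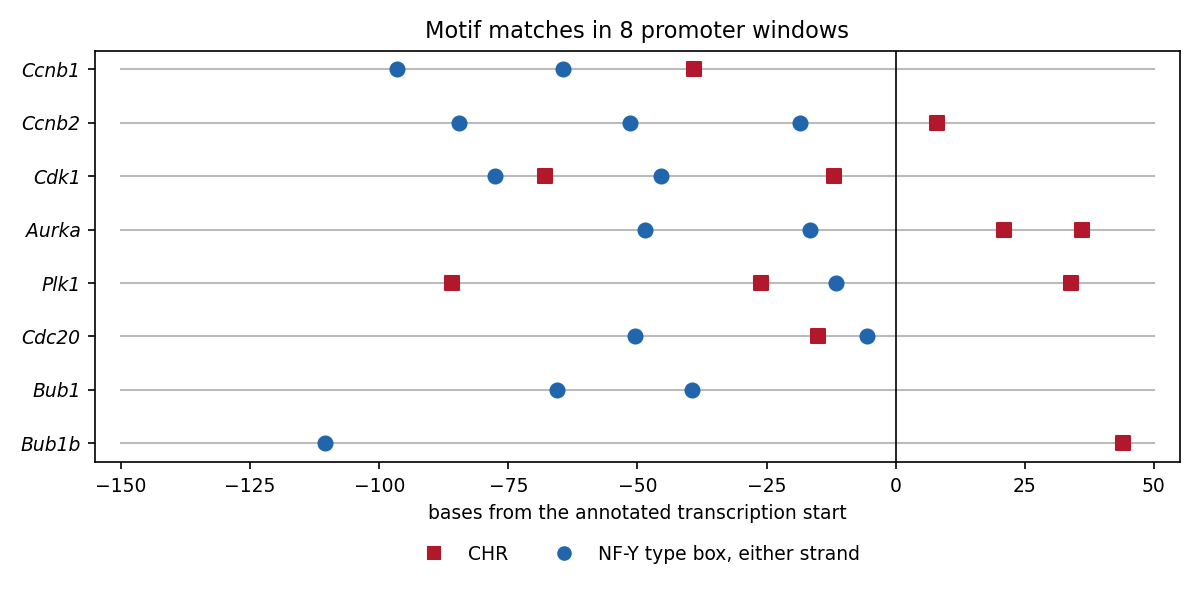
Positions of CHR matches (red squares) and CCAAT boxes, the NF-Y type boxes (blue circles), in the promoter windows of 8 mitotic genes, in bases from the annotated transcription start (vertical line). All 8 windows hold a CCAAT box and 7 hold a CHR match, with Bub1 the exception.

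All 10 genes fell in the K68R cultures. The falls ran from 1.68-fold for Plk1 to 3.50-fold for Ccnb1, with a median of 2.71-fold, and 9 of 10 were at least 2-fold. In each of the 10 the K68R values lay wholly below the WT values. The background in this comparison is high. Among the 16730 genes tested, 40.5% were called lower in K68R and 40.8% higher at an adjusted p under 0.05 (edgeR quasi-likelihood test, Benjamini-Hochberg), and in 82.3% the values of the genotypes did not overlap, so a call by itself says little about a gene. A called fall of at least 2-fold was less frequent, in 7.57% of the genes tested. The median log2 fold change of K68R over WT was -1.44 over the 10 genes and -0.01 over all genes tested. Together the 10 genes took 0.0440% to 0.0448% of all counts in the K68R libraries and 0.121% in each WT library. Their summed level was 450.3 ± 4.59 CPM in K68R against 1192 ± 4.13 CPM in WT (SD, n = 3 each), where CPM is the TMM-normalized count scaled to a common library size.

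The cyclins had the 3 largest falls, although with the length and GC offsets described further on the largest was that of Cdk1. Ccnb1, cyclin B1, the main partner of CDK1 at mitotic entry (build mm39, chromosome 13, 100915247 to 100922994, minus strand), was at 55.6, 52.6 and 58.9 CPM in the K68R libraries and at 196, 191 and 197 CPM in the WT libraries. The highest K68R value was far below the lowest WT value. By edgeR the log2 fold change was -1.81 (SE 0.03002), at an adjusted p = 8.49e-56. Ccnb2, cyclin B2, which resides mainly at the Golgi (chromosome 9, 70314971 to 70328836, minus strand), was at 24.3, 25.5 and 24.6 CPM in K68R and at 78.4, 78.0 and 75.4 CPM in WT. Its fall of 3.12-fold was close to that of Ccna2 at 3.10-fold. Ccna2, cyclin A2, which acts in S phase and again at mitotic entry (chromosome 3, 36619014 to 36627187, minus strand), was at 54.2, 56.9 and 57.4 CPM in K68R and at 176, 173 and 174 CPM in WT. Cdk1, the kinase that these cyclins activate (chromosome 10, 69170976 to 69188742, minus strand), was at 60.8, 60.1 and 62.6 CPM in K68R and at 187, 184 and 176 CPM in WT. That is 2.98-fold lower, so the kinase and its 3 cyclins lay between 28.6% and 33.5% of their WT levels.

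The mitotic kinases fell by different amounts. Aurka, Aurora A, the kinase of centrosome maturation and spindle assembly (chromosome 2, 172198116 to 172212825, minus strand), was at 40.9, 40.4 and 38.9 CPM in K68R and at 112, 110 and 113 CPM in WT, 2.78-fold lower. Aurkb, Aurora B, the catalytic subunit of the chromosomal passenger complex (chromosome 11, 68936477 to 68942490, plus strand), was at 19.1, 21.6 and 19.6 CPM in K68R and at 43.3, 45.9 and 44.8 CPM in WT, 2.21-fold lower. It had the lowest counts of the group, 494 to 673 in K68R, and the widest spread, with a coefficient of variation of 6.42% in K68R. Plk1, the kinase that activates CDK1 and later matures the spindle and the cleavage furrow (chromosome 7, 121758658 to 121769107, plus strand), was at 48.3, 52.4 and 50.7 CPM in K68R and at 85.6, 84.4 and 84.8 CPM in WT. The K68R values lay at about 60% of the WT ones, and the log2 fold change of -0.75, with a 95% interval from -0.82 to -0.68, did not reach that of any other of the 10 genes, of which Cdc20 was nearest with an interval from -1.12 to -1.01. With the offsets described further on this separation was lost, at -0.97 for Plk1, -1.01 for Aurkb and -1.02 for Cdc20 (log2). When edgeR's glmTreat tested for a change beyond 1.5-fold, all 10 genes were called lower, with a largest adjusted p of 3.58e-06, where 14.9% of all genes tested were called lower that way.

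Of the checkpoint genes, Cdc20 (chromosome 4, 118290098 to 118294540, minus strand), the target of the checkpoint, was at 73.8, 69.3 and 72.6 CPM in K68R and at 148, 150.3 and 153 CPM in WT, 2.09-fold lower. Bub1, a kinase that marks the centromere and recruits other checkpoint proteins (chromosome 2, 127642117 to 127673790, minus strand), was at 33.5, 33.1 and 32.8 CPM in K68R and at 86.2, 87.0 and 88.8 CPM in WT, 2.63-fold lower. Bub1b, which encodes BUBR1, the subunit of the checkpoint complex that binds CDC20 (chromosome 2, 118428684 to 118472073, plus strand), was at 35.8, 37.1 and 37.4 CPM in K68R and at 85.1, 87.6 and 82.8 CPM in WT, 2.31-fold lower. The replicate spread of the 10 genes was small throughout, with coefficients of variation from 0.740% to 6.42%, and the largest adjusted p of the 10 was 9.95e-31 (edgeR).

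**Figure D2:**
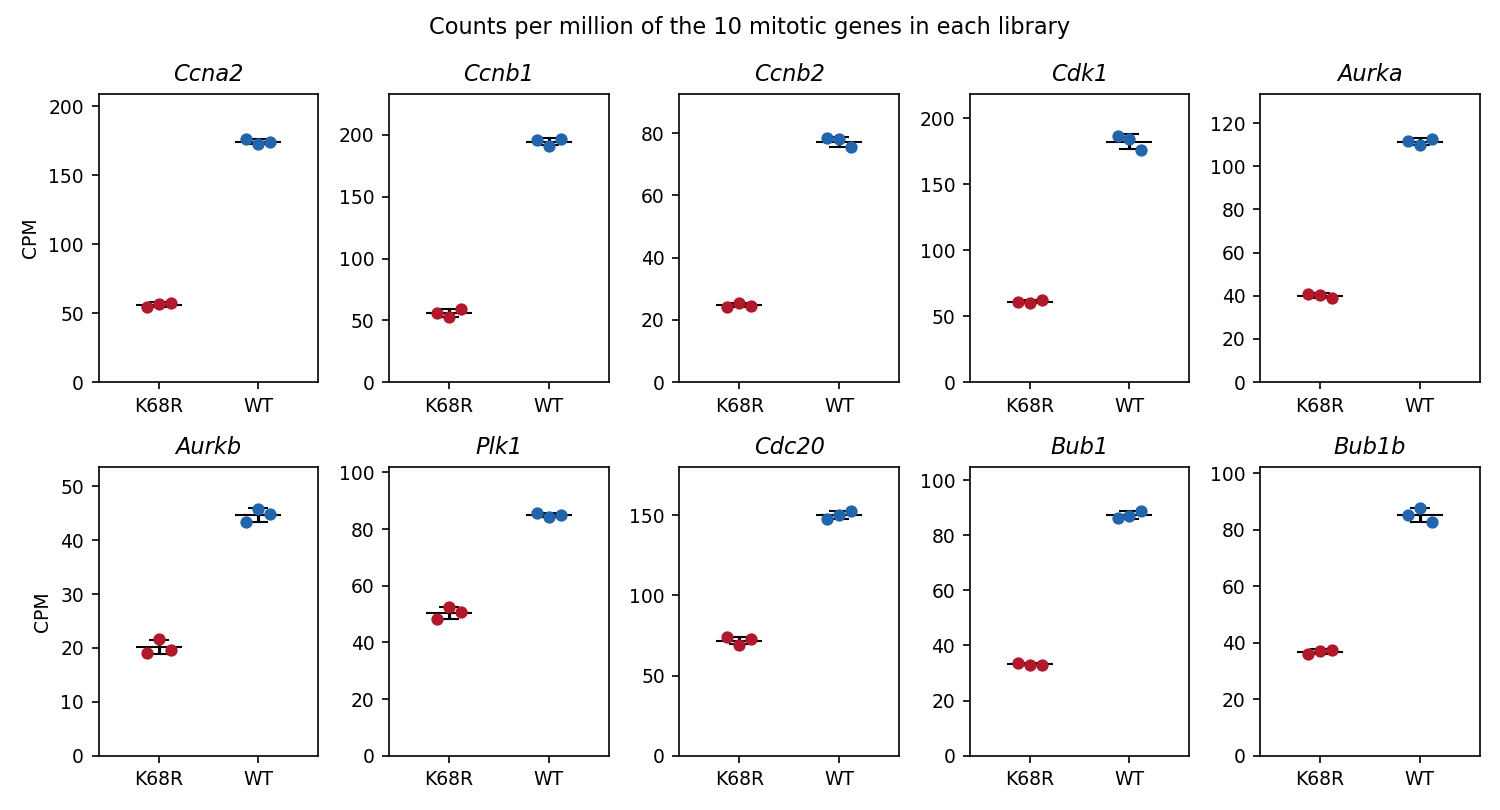
CPM of each of the 10 mitotic genes in the 3 K68R (red, left) and 3 WT (blue, right) libraries, on axes that start at 0, with horizontal lines at the means and bars for the SD. Each axis is scaled to the WT mean of its gene. In each panel the K68R points lie below the WT points. Relative to the WT level the gap is narrowest in Plk1, at 48.3 to 52.4 CPM in K68R and 84.4 to 85.6 CPM in WT.

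The 10 genes differ in transcript length and in GC content, and fold changes across all genes varied with both. Their exonic lengths ran from 1541 bases in Ccnb2 to 4351 bases in Bub1. GC content, taken from the longest GENCODE M21 transcript, ran from 41.0% in Bub1 to 56.0% in Plk1. The 2 genes with the highest GC content, Plk1 at 56.0% and Cdc20 at 55.6%, had the smallest falls, and the 4 with the largest falls, Ccnb1, Ccnb2, Ccna2 and Cdk1, all lay under 50% GC. Bub1, with the lowest GC content of the 10, ranked only 6 in size of fall. After removal of each library's trend with length and GC content, fitted as a smooth surface and entered as offsets, all 10 genes were still called lower, where 43% of the 15594 genes with a GC value were called lower and 33% higher (edgeR). The median log2 fold change of the 10 was then -1.27, against -0.07 over all genes tested that way. The differences between the members narrowed, to a range from 1.96-fold in Plk1 to 2.87-fold in Cdk1, against 1.68-fold to 3.50-fold without the offsets. The log2 fold change of Ccnb1 became -1.43 and that of Ccnb2 -1.24, while Plk1 moved the other way to -0.97 and Bub1b to -1.31. The part of the log2 fold change that the surface accounted for ran from -0.40 in Ccnb2 to 0.22 in Plk1. Which part of it is technical was not tested.

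**Figure D3:**
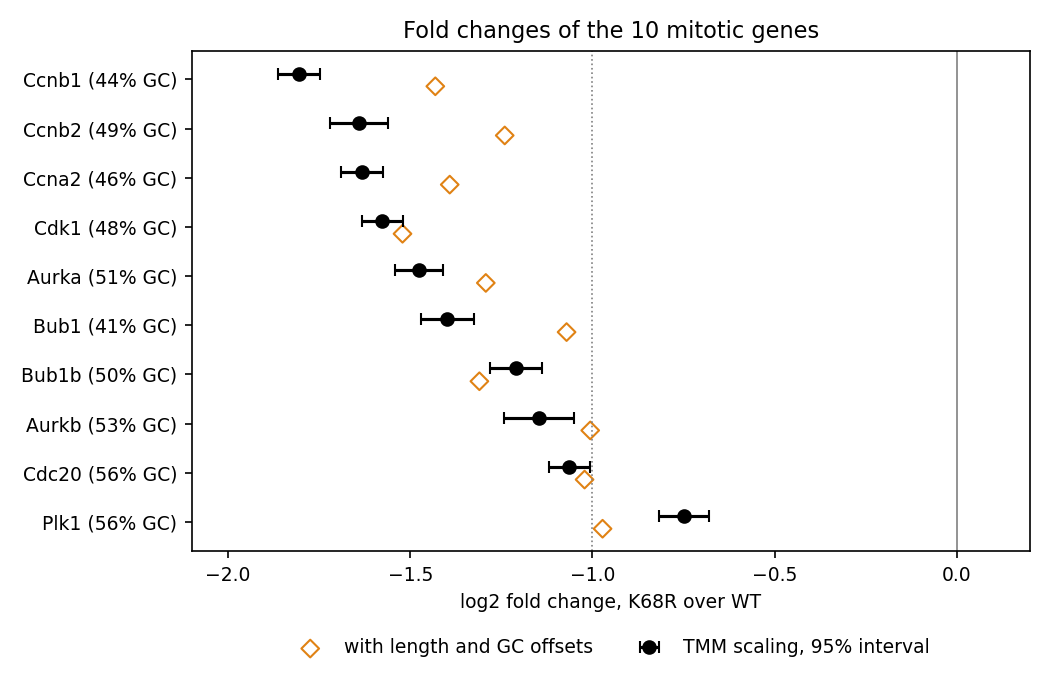
Log2 fold change of K68R over WT for each of the 10 genes under TMM scaling (black points, bars for the 95% interval) and with length and GC offsets (open orange diamonds), ordered by the first, with GC content beside each symbol. The offsets move Ccnb1 to -1.43 and Plk1 to -0.97, and leave all 10 genes between -1.52 and -0.97.

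Per exonic length, as CPM per kilobase (RPKM), Cdc20 stood first in both genotypes, at 40.3 ± 1.31 in K68R and 84.2 ± 1.36 in WT (SD, n = 3 each). In WT it did not differ from Ccnb1 beyond their spread, since Ccnb1 averaged 24.1 ± 1.35 RPKM in K68R and 84.0 ± 1.35 RPKM in WT. In K68R the 2 genes were apart and Ccnb1 overlapped Plk1. Plk1 was the gene whose place changed most, the third highest in K68R at 22.8 ± 0.935 RPKM and the seventh in WT at 38.4 ± 0.284 RPKM. Aurka, Ccna2, Ccnb2 and Cdk1 followed in K68R at 18.0, 16.6, 16.1 and 14.1 RPKM, and in WT, where they stood above Plk1, they averaged 49.98, 51.6, 50.2 and 41.9 RPKM. Among these the values of Ccna2 and Ccnb2 overlapped in K68R, and those of Ccnb2 and Aurka in WT. Bub1b, Aurkb and Bub1 were the lowest 3 in both genotypes, at 9.998, 9.35 and 7.62 RPKM in K68R and 23.2, 20.8 and 20.1 RPKM in WT, and Bub1b overlapped Aurkb in K68R and Aurkb overlapped Bub1 in WT.

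**Figure D4:**
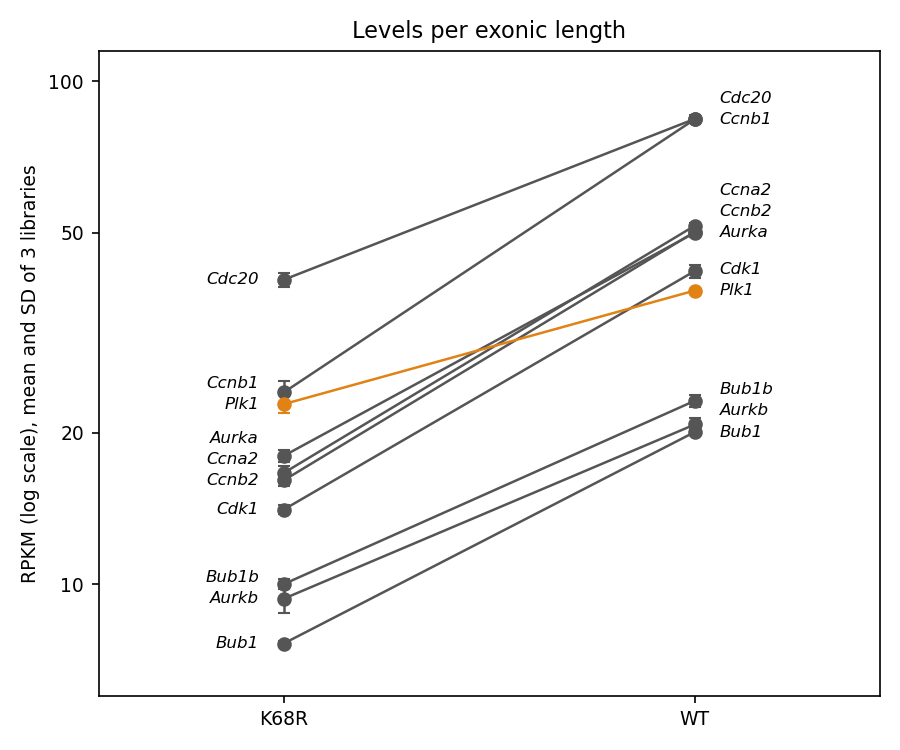
Mean RPKM of the 10 genes in K68R (left) and WT (right) on a log scale, with bars for the SD of 3 libraries and Plk1 in orange. Plk1 is the third from the top in K68R, at 22.8 RPKM, and the seventh in WT, at 38.4 RPKM, while Cdc20 is first in both.

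In 4 pairs of related members the ratio of RPKM values was compared between genotypes. The ratio of Ccnb1 to Ccnb2 was 1.49 in K68R and 1.68 in WT, a difference in log2 ratio of -0.16, and the K68R values, from 0.46 to 0.67 on the log2 scale, lay below the WT values, from 0.70 to 0.80. For Aurka to Aurkb the ratio was 1.93 in K68R and 2.41 in WT, with a difference of -0.32 (log2). For Bub1 to Bub1b it was 0.762 in K68R and 0.867 in WT, with a difference of -0.19 (log2). These 3 gave p = 0.1 in a two-sided exact permutation test, the smallest that 3 against 3 libraries allow, and 0.133 after adjustment over the 4 pairs. For Ccna2 to Cdk1 the ratio was 1.18 in K68R and 1.23 in WT, the genotypes overlapped, and the exact permutation p was 0.3. With length and GC offsets the difference for Bub1 to Bub1b turned to 0.24 (log2), and that for Ccna2 to Cdk1 to 0.13.

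Reads of 5 members are less certain. Exons on the opposite strand overlap 11.2% of the exonic bases of Ccna2 (Exosc9), 8.34% of those of Aurka (Cstf1) and 2.97% of those of Cdc20 (Elovl1), and the counting did not use strand. These neighbours had smaller falls than the members, of 1.53-fold, 1.38-fold and 1.39-fold, all called (edgeR, largest adjusted p = 3.48e-19). Ccnb1 shares at least 95% identity with 4 annotated copies, Ccnb1-ps, Gm12856, Gm8416 and Gm7483, the first of which covers 51.7% of its transcript, and reads that map to several places were not counted. Summed over the libraries of a genotype, Ccnb1-ps held 95 counts in K68R against 309 in WT, a log2 fold change of -1.42. A transcript of Gm44985, which the count table does not list, matches 7.19% of that of Plk1.

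Most regulators that switch CDK1 on and off fell. Of 11 genes, 9 fell, 1 rose and 1 was not called, with a median log2 fold change of -0.47, and -0.81 with offsets. The counts of this and the following lists stand beside 40.5% of all genes tested called lower and 40.8% called higher. Cks1b, a small subunit of cyclin-dependent kinases, was at 71.7 ± 1.88 CPM in K68R against 167 ± 3.00 CPM in WT (SD, n = 3 each), and Cdc25c, a phosphatase that activates CDK1, at 6.66 ± 0.369 CPM in K68R against 18.4 ± 0.789 CPM in WT (SD, n = 3 each). Mastl, the Greatwall kinase that protects CDK1 substrates from dephosphorylation, fell by 1.16 on the log2 scale. The gene that rose was Cdc25a, with a log2 fold change of 0.21 and 0.43 with offsets. Pkmyt1, which inhibits CDK1, was not called at -0.16 (adjusted p = 0.0584, edgeR), and with offsets it was called lower at -1.06. Ensa and Arpp19, substrates of Mastl, lost their lower calls with offsets, which left 8 lower, 1 higher and 2 not called.

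The partners of the Aurora and Polo kinases and other mitotic kinases mostly fell, with 10 of 12 lower, 2 higher and a median of -1.38 (log2), or -1.06 with offsets. Birc5, survivin, which holds Aurora B at the centromere, was at 33.5 ± 0.879 CPM in K68R against 118 ± 2.83 CPM in WT (SD, n = 3 each), a log2 fold change of -1.82. Tpx2, the spindle protein that activates Aurora A, was at 104 ± 1.75 CPM in K68R against 216 ± 6.03 CPM in WT (SD, n = 3 each). The 2 genes that rose were Incenp, the scaffold of the chromosomal passenger complex, at 0.70 (log2), and Ajuba, an adhesion and signalling protein that also binds Aurora A, at 1.51. With offsets these became 0.16 and 0.11, still called.

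Among 23 genes of the checkpoint and of the anaphase-promoting complex with its regulators, 18 fell, 4 rose and 1 was not called, and 5 of the falls were at least 2-fold. Ube2c, the ubiquitin-conjugating enzyme of the complex, was at 53.2 ± 3.23 CPM in K68R against 165 ± 1.16 CPM in WT (SD, n = 3 each), 3.09-fold lower. The checkpoint proteins Mad2l1 and Bub3 had log2 fold changes of -1.38 and -0.91. The 4 that rose were Mad1l1, Fzr1, Espl1 and Anapc2, and Knl1, a kinetochore scaffold, was not called. With offsets 21 of the 23 were called lower, these 4 among them, and Zwint, lower by 0.07 (log2) without offsets, was called higher at 0.28. Mad1l1, the anchor of Mad2l1, moved most, with a log2 fold change of 0.48, and -2.55 with offsets, at an exonic length of 36091 bases.

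The factors known to act on promoters of mitotic genes did not all move one way. Of 15 genes of the DREAM and MuvB complexes, the NF-Y trimer and their partners, 10 fell, 3 rose and 2 were not called, with a median of -0.42 (log2), or -0.40 with offsets. Rbl1, the pocket protein p107, was at 16.1 ± 0.907 CPM in K68R against 42.8 ± 1.27 CPM in WT (SD, n = 3 each), and Tfdp1, the dimer partner of E2F proteins, fell by 0.70 and Rbbp4, a histone-binding subunit of MuvB, by 0.49 (log2). Foxm1 and Mybl2, activators of the mitotic wave that were picked after their values were seen, rose. Foxm1 was at 53.5, 50.9 and 53.8 CPM in K68R and at 28.7, 28.2 and 28.3 CPM in WT, a log2 fold change of 0.89 (edgeR, adjusted p = 3.86e-30). Mybl2 was at 15.0 ± 0.179 CPM in K68R against 11.03 ± 0.710 CPM in WT (SD, n = 3 each). Both calls ended with offsets: Foxm1 then had -0.07 (adjusted p = 0.135) and Mybl2 was called lower at -0.84 (adjusted p = 8.84e-17, edgeR). The third that rose, Rbl2, the pocket protein p130 of resting cells, had 0.32, and 0.39 with offsets. Both Foxm1, at 54.6%, and Mybl2, at 56.3%, have a GC content like that of Plk1 and Cdc20, but they are longer. Their exonic lengths are 4365 and 4129 bases, against 2214 in Plk1 and 1784 in Cdc20. The surface accounted for 0.96 of the log2 fold change in Foxm1 and 1.29 in Mybl2, against 0.22 in Plk1 and -0.04 in Cdc20. Which property sets these shifts was not tested.

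Genes of the earlier cell cycle were split, and most mitotic kinesins fell. All 14 genes of DNA replication and nucleotide supply fell, with a median of -1.33 (log2), or -1.28 with offsets. Mcm6, a subunit of the replicative helicase, was at 78.0 ± 3.90 CPM in K68R against 237 ± 3.31 CPM in WT (SD, n = 3 each), Pcna, the sliding clamp, fell by 1.36 and Rrm1, the large subunit of ribonucleotide reductase, by 1.29 (log2). The 13 mitotic kinesins had 12 falls and 1 gene not called, Kif18b, which was called lower with offsets at -0.85 (log2), with a median of -1.12 (log2), or -0.93 with offsets. Kif11, the motor that separates the spindle poles, had -1.39, Kif20a -1.29 and Kif23 -1.12. Whether these lists differ from the 10 members was not tested. Of the 8 G1 and S cyclins and kinases, 4 fell and 4 rose, near the shares of all genes tested (40.5% called lower and 40.8% higher). Cdk4 and Cdk2 had log2 fold changes of -0.72 and -0.96, while all 3 D-type cyclins, Ccnd1, Ccnd2 and Ccnd3, and Cdk6 rose, with Ccnd3 at 216 ± 1.09 CPM in K68R against 141 ± 1.22 CPM in WT (SD, n = 3 each). With offsets the same 4 genes were called in each direction.

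Of 7 inhibitors of cyclin-dependent kinases, 4 rose and 3 fell, where 40.8% of all genes tested were called higher and 40.5% lower. Beside those shares the counts alone say little about the inhibitors. Cdkn1c, the inhibitor p57, was at 200 ± 3.89 CPM in K68R against 30.6 ± 1.63 CPM in WT (SD, n = 3 each), 6.49-fold higher. Cdkn2a, the locus of p16 and p19ARF, whose transcripts these counts do not separate, was at 24.6 ± 0.577 CPM in K68R against 5.44 ± 0.376 CPM in WT (SD, n = 3 each). Cdkn1a, the p53 target p21, had the highest level of the 7, at 934 ± 7.81 CPM in K68R against 633 ± 6.12 CPM in WT (SD, n = 3 each). With offsets the log2 fold changes of these 3 were 2.23, 2.11 and 0.59, against 2.70, 2.17 and 0.56. The fourth that rose was Cdkn2b, at 1.26. Cdkn1b, Cdkn2c and Cdkn2d fell, with log2 fold changes of -0.51, -1.24 and -0.98. Mki67, which encodes the proliferation antigen Ki-67, moved the other way from the 10 members, at 148 ± 3.34 CPM in K68R against 33.6 ± 1.504 CPM in WT (SD, n = 3 each), with a log2 fold change of 2.14, and 1.76 with offsets. It has 10257 exonic bases.

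**Figure D5:**
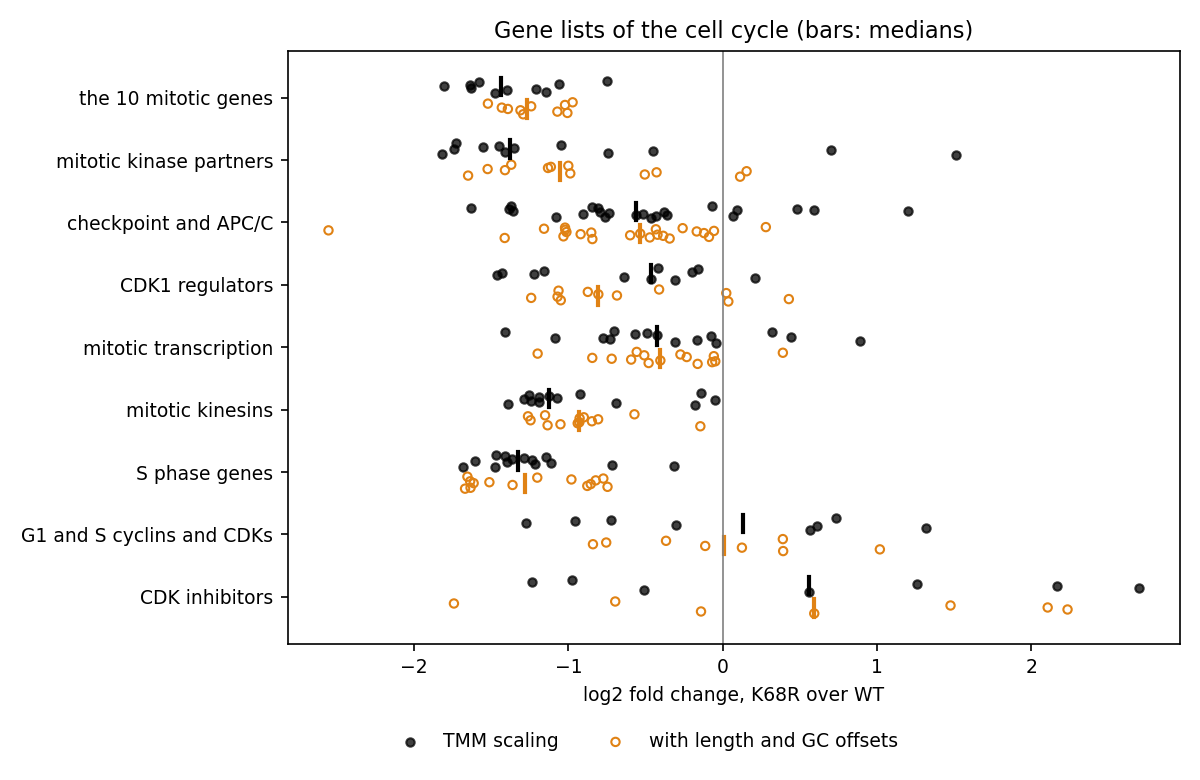
Log2 fold change of K68R over WT for every tested gene of 9 cell cycle lists, under TMM scaling (black, upper row of each list) and with length and GC offsets (orange, lower row), with bars at the medians. The 10 mitotic genes lie between -1.81 and -0.75 and have a median of -1.44, while the inhibitors run from -1.24 to 2.70.

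The genes outside these lists whose profile lay nearest to the mean profile of the 10 members, by Euclidean distance of centred log2 CPM over the 6 libraries, were Emp1, Prc1, Rigi, Syt13 and Hmgb1, at distances from 0.0229 to 0.0677. Of the members themselves Bub1 lay nearest at 0.0649 and Plk1 farthest at 0.761. Emp1 was at 839 ± 4.69 CPM in K68R against 2164 ± 15.3 CPM in WT, and Prc1 at 83.3 ± 1.36 CPM in K68R against 216 ± 1.21 CPM in WT (SD, n = 3 each). With 3 libraries of each genotype such a likeness is in effect a like fold change between genotypes, here from -1.39 to -1.36 on the log2 scale.

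Library totals ran from 26200088 to 31738219 counts in K68R and from 30856781 to 40691447 in WT, and the lowest count of any member in any library was 494, far above the floor of 3 counts. Sod2 itself was 1.49-fold lower in K68R, at 47.2 ± 1.62 CPM against 70.0 ± 1.58 CPM in WT (SD, n = 3 each), and 1.16-fold lower with offsets. The counts do not distinguish the knock-in codon. All 8 fibroblast markers were expressed in every library, and their summed level was 11003 to 11120 CPM in K68R and 7913 to 8066 CPM in WT, with 4 higher, 3 lower and 1 not called. Col1a1 and Col1a2 made the difference in that sum, and the other 6 markers summed to 6182 to 6259 CPM in K68R and 7132 to 7291 CPM in WT. These 6 did not move together. Pdgfra was 5.56-fold, S100a4 3.39-fold and Thy1 3.06-fold lower in K68R, Col3a1 2.89-fold and Pdgfrb 1.22-fold higher, and Vim was not called. Markers of other cells moved with genotype too. Of 7 skeletal muscle markers 7 were higher, with sums of 138 to 142 CPM in K68R and 37.98 to 40.5 CPM in WT, and Pax7 at 0 in WT. Of 6 adipocyte markers 6 were lower, with sums of 59.4 to 63.9 CPM in K68R and 228 to 241 CPM in WT, and Plin1 at 0 in K68R. Of 6 epithelial markers 6 were lower, with sums of 18.4 to 20.5 CPM in K68R and 46.0 to 47.6 CPM in WT. Of 7 endothelial markers 5 were tested and 2 were higher, with sums of 96.2 to 97.9 CPM in K68R and 25.2 to 27.6 CPM in WT, most of it Kdr at 90.7 ± 1.203 CPM in K68R against 20.4 ± 1.24 CPM in WT (SD, n = 3 each), and Cldn5 at 0 in K68R. The 10 macrophage markers summed to 155 to 162 CPM in K68R and 167 to 170 CPM in WT, with 4 higher and 2 lower, and with offsets 6 higher and 1 lower. The 2 that were lower, Lyz2 and Cd68, were called higher with offsets. Xist and 4 Y-linked genes were detected in every library, with Xist at 175 ± 2.54 CPM in K68R against 136 ± 2.99 CPM in WT, and the Y-linked genes all lower in K68R (Ddx3y at 51.0 ± 3.28 CPM in K68R against 76.8 ± 1.90 CPM in WT; SD, n = 3 each). With offsets the call of Xist was lost at -0.05 (log2), and the Y-linked genes were still called lower. Since every library held Xist and the Y-linked genes together, each mixed cells of both sexes and does not stand for a single embryo. The part of these cell types and of sex in the falls of the mitotic genes was not tested.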

How the data were processed

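The authors deposited 1 table of raw, unnormalized counts of read pairs over the exons of each gene, with the exonic lengths. Per the file headers, featureCounts used RefSeq genes of build mm39, no strand option and no multi-mapping reads. Per the submitters' processing notes the tools were bcl2fastq, HISAT2 2.2.1, SAMtools and featureCounts 2.0.6. Per the labels' protocols, libraries came from a stranded poly(A) kit and RNA with an integrity number above 4.

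From these counts, edgeR 4.0.16 (R 4.3.3) was run with filterByExpr defaults, TMM scaling and the robust quasi-likelihood F test over all 16730 genes kept, with Benjamini-Hochberg adjustment and a threshold of 0.05. The profile distances used log2 CPM with a prior count of 2. Standard errors are the absolute log2 fold change over the root of F, and 95% intervals are normal. The offsets are a smooth of log counts on log2 length and GC content per library (mgcv 1.9.3). GC content is that of GENCODE M21 transcripts joined by symbol (36310 direct matches, 499 by an older symbol). Similar transcripts were sought among the same ones (BLAST 2.17.0, at least 95% identity over 100 bases or more). Promoter windows are RefSeq's on GRCm38.p6, and gene positions are the file's on mm39. The fit was tested on simulated data in which few genes changed, as many up as down, and without a length or GC trend. That does not test the scaling for data in which most genes are called, as here.

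The members and lists were chosen with earlier results of these data known. The genes named are the members, Sod2, Mki67, up to 3 called genes of each list with the smallest p and the 5 nearest profiles. Overlapping genes and copies are named for their position or sequence, and the exceptions to a list's direction, other members of the lists of inhibitors and of G1 and S genes, and single markers after their values were seen. Libraries of 1 genotype differed beyond sampling noise (chi-square per gene 1.84 to 2.29), and each was entered as a sample. Separate preparations from 1 pool of cells can also differ in this way. The value therefore does not show that the libraries came from separate embryos or dishes. Same-numbered libraries did not deviate together (correlations -0.00947 to 0.0135) and were not treated as pairs. Floors cover counting error only.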

Additional observations from a re-analysis of the deposited data

How the results depend on the processing

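All 10 genes were called lower under each of the 17 alternatives that tested all of them, DESeq2 1.42.0 and limma-voom included, and when any 1 library was left out. Among genes of 1000 to 4000 exonic bases, 8 of the 10 were tested and all 8 called. The median log2 fold change of the 10, -1.44, was -1.55 with upper quartile scaling (median of all genes -0.12), -1.48 with no filter (all genes 0.15), -1.27 with length and GC offsets, and -1.27 with offsets and a replicate block. Among genes of 1000 to 4000 bases it was -1.19 over 8 members, as Cdk1 and Bub1 are longer, so the set differs from the 10. The set is not the only difference, since each of the 8 had a smaller fall in that fit. Ccna2 went from -1.63 to -1.48 and Plk1 from -0.75 to -0.59 (log2). The median of the 10 ran from -1.46 to -1.42 when a library was left out. With a replicate block alone it was -1.44, 10 members were called lower, and no count of calls moved by over 1.5 times. With offsets, alone or with the block, 1 checkpoint gene was called higher (4 without) and 1 transcription gene (3 without). Among genes of 1000 to 4000 bases, 7876 were tested, against 16730 in the main fit. Members of the lists outside this range were not tested either, so the counts cannot be set against those of the full lists. There, 4 CDK1 regulators, 6 kinase partners, 4 transcription genes and 4 kinesins were called lower, and 2 G1 and S genes higher. Of the 7876 genes, 3071 were called lower and 3052 higher. Beyond 1.5-fold, 2490 of all genes were lower and 4365 higher. With offsets the log2 difference in ratio was 0.24 for Bub1 to Bub1b (-0.19 without) and 0.13 for Ccna2 to Cdk1 (-0.06 without). The cause of these shifts was not tested. Counting error alone gives the members a coefficient of variation of 2.11% to 4.50% in K68R libraries and 1.11% to 2.64% in WT libraries. The fitted one between libraries of a genotype, beyond counting error, was 2.19%, and it may be technical. Both depth and the number of libraries limit the precision against this spread. How far embryos of a genotype differ cannot be judged from it.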
